A study of Mus musculus with 6 samples.

Results

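The genes described here are 10 negative regulators of Wnt signalling: the secreted antagonists Sfrp1, Sfrp2, Sfrp4, Frzb, Dkk2, Dkk3, Wif1 and Sost, and the intracellular feedback genes Nkd2 and Axin2. They were taken by name from the 36711 gene identifiers in the deposited tables, and all 10 were found. RNA sequencing had been carried out on knee cartilage of 3-month-old mice of the C57/Bl6 strain with 3 miR-455 null libraries and 3 wild-type (WT) libraries. The null allele was made by CRISPR-Cas9 editing and is not driven by a tissue-specific Cre, so every cell type in the dissected sample carried it. Neither mature form of the microRNA is left intact by the edit. Values are the authors' normalised abundances, which are scaled for transcript length and can therefore be compared between genes. Each sample was recorded as 2 knees. The labels do not say whether the libraries of a genotype came from separate animals, so p-values reflect library-to-library spread, which may be technical.

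Wnt proteins bind Frizzled receptors and the co-receptors Lrp5 and Lrp6 at the cell surface, which stabilises beta-catenin and switches on TCF/LEF target genes. Secreted Frizzled-related proteins (Sfrp1, Sfrp2, Sfrp4 and Frzb) and Wif1 bind Wnt ligands, whereas sclerostin (encoded by Sost) and most Dickkopf proteins bind the co-receptors. Axin2 and Nkd2 act inside the cell. In the skeleton this pathway drives bone formation, and sclerostin from osteocytes restrains it there.

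The microRNA missing from the null mice has 2 mature forms, both shown here because their seeds (bases 2 to 8, in capitals) decide which transcripts they can pair with. Mouse Mir455 lies on the plus strand of chromosome 4 of GRCm38 (mm10), in an intron of Col27a1, with miR-455-5p at chr4:63256867-63256888 and miR-455-3p at chr4:63256904-63256924. The mature sequences are those of RefSeq for GRCm38.p6.
mmu-miR-455-3p: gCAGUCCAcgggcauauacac
mmu-miR-455-5p: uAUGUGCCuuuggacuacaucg

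In mRNA the matching 7-base words are TGGACTG for miR-455-3p and GGCACAT for miR-455-5p. Of the 10 genes, 1 held such a word in an annotated 3′UTR of its coding transcripts (GENCODE M21, mm10). This was Nkd2, an inhibitor of Dishevelled, with 1 match for miR-455-3p at chr13:73820549-73820555 on the minus strand, starting at base 405 of a 3′UTR of 2426 bases. The word is given in capitals with its flanks.
Nkd2 site: gtaaagtcagTGGACTGgcttggaaag

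The other 9 genes had 0 matches for either form in 3′UTRs of up to 3144 bases, the longest being that of Sfrp1. Among 15107 tested genes with a 3′UTR, 14.2% held a miR-455-3p word and 9.36% a miR-455-5p word. A word match describes the letters of the annotation and does not show binding.

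The dissected tissue held much marrow. The 4 adult globin genes made up 21.3%, 19.7% and 11.3% of total abundance in null libraries 1 to 3, against 26.8%, 26.9% and 26.1% in WT libraries 1 to 3. The 15 genes of a cartilage matrix list were all detected, but together gave 0.0121% to 0.0209% in null and 0.00969% to 0.0127% in WT libraries. Col2a1, the main cartilage collagen gene, was at 24.8, 63.8 and 31.1 in null and at 21.6, 19 and 18.4 in WT libraries. Sums of superficial zone, skeletal muscle and macrophage genes were higher in all null libraries and those of globin and B cell genes lower. The lowest null sum of superficial zone genes, 311, was close to the highest WT sum, 302, and Prg4 was the most abundant gene of that list. By the median of its genes, as centred log2 values, null 3 (-0.151) lay below WT 1 (-0.0221) and WT 3 (-0.0101). The cartilage matrix sum was 119 to 204 in null and 110 to 119 in WT libraries, and its shares of the total overlapped, as did those of the B cell genes. Null 1 and null 3 stood apart. Null 1 had the highest muscle sum (187, against 73.7 and 83.6 in the other null and 43.8 to 60.7 in the WT libraries) and the highest sum of fibroblast, tendon and synovium genes (397, against 193 to 226 in the other 5). In null 3 neutrophil genes made up 20.3% of the total, against 8.28% and 12.5% in the other null and 8.54% to 10.2% in the WT libraries, and the B cell sum was lowest (149, against 289 to 518). In bulk tissue, fewer cells of a type and less RNA per cell cannot be told apart. Comparisons between genotypes used limma on log2(abundance + 0.5), adjusted by Benjamini-Hochberg over the 17736 genes with a mean abundance of at least 0.1.

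The 10 genes fell into 2 levels of abundance. Wif1 and Sfrp4 were the abundant members. They averaged 23.1 ± 4.53 and 17.9 ± 7.14 in null libraries, and 16.7 ± 3.23 and 12.5 ± 1.59 in WT libraries (SD, n = 3 each). Together they made up 85.3% to 88.9% of the summed abundance of the 10 genes in null and 83.3% to 87.5% in WT libraries. None of the other 8 genes exceeded 1.66 in any library. In WT the descending order was Wif1, Sfrp4, Frzb, Dkk3, Sost, Nkd2, Axin2, Sfrp1, Dkk2 and Sfrp2. Neighbours in that order overlapped between libraries except at the step below Sfrp4 and at the last step, where the highest Sfrp2 value (0.213) lay below the lowest Dkk2 value (0.294). In null libraries the order was Wif1, Sfrp4, Dkk3, Frzb, Sfrp2, Nkd2, Axin2, Sfrp1, Sost and Dkk2, and the range of Sfrp2 overlapped those of Frzb above it and Nkd2 below it.

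**Figure D1:**
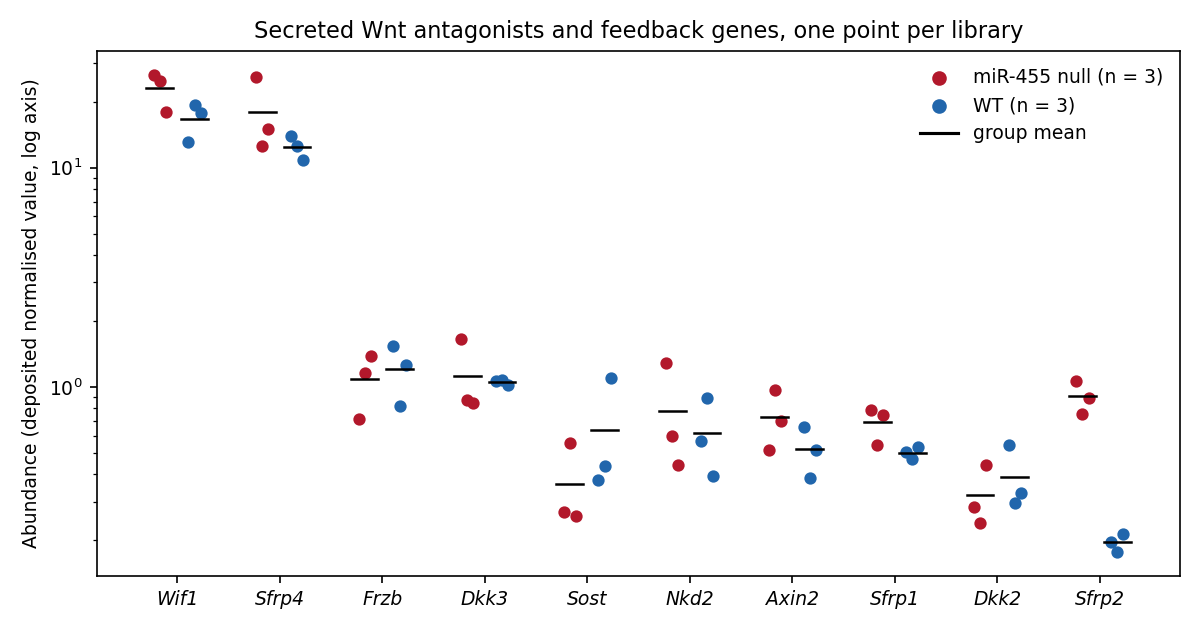
Abundance of the 10 genes by library, on a log axis, with miR-455 null libraries in red at the left of each pair, WT libraries in blue at the right, and black bars for group means (n = 3 each). Wif1 and Sfrp4 lie above 10 in every library, and Sfrp2 has null values of 0.755 to 1.07 against 0.177 to 0.213 in WT.

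The question was whether any of these regulators differed between null and WT cartilage. None of the 10 passed adjusted p 0.05 by limma, where 4 of 17736 genes did (0.0226%), and 1 had an unadjusted p under 0.05, as did 5.36% of all genes tested. That gene was Sfrp2. Of the 10, 7 had a positive and 3 a negative log2 fold change, with a median of 0.20 over the 10, 0.16 without Sfrp2 and 0.01 over all genes tested. Positive values made up 52.4% of all genes tested. The median was 0.36 for the cartilage matrix list, 0.24 for hypertrophic chondrocyte, 0.21 for marrow stroma and 0.15 for superficial zone genes. It was 0.13 for fibroblast, tendon and synovium genes, 0.03 for osteoblast and osteocyte genes, -0.73 for B cell genes and -0.76 for globins. A positive median was thus not particular to the 10 genes. Null and WT values were fully apart for 2 of the 10, Sfrp1 and Sfrp2, both higher in null. Of all genes tested 11.2% were apart in this way, 5.9% higher in null and 5.32% lower. With a library left out, complete separation was more frequent over all genes too. Without null 1 it held for 4 of the 10 and 35% of all genes tested, without null 2 for 4 and 18.2%, without null 3 for 4 and 19%, and without WT 2 for 3 and 19.7%. After rescaling each library to cartilage, bone and fibroblast genes it held for Sfrp2 alone of the 10, beside 18.2% of all genes.

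**Figure D2:**
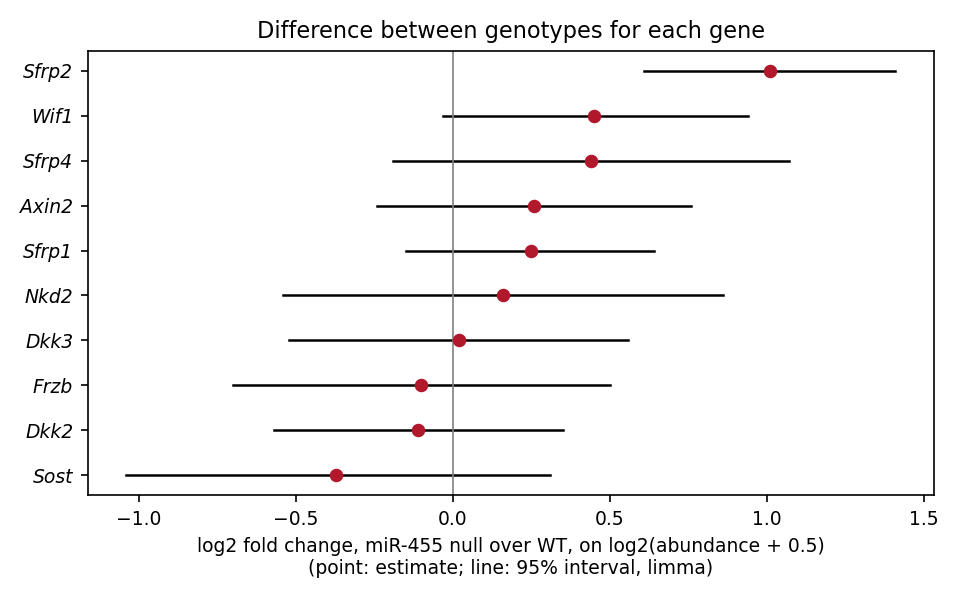
Log2 fold change of miR-455 null over WT for each gene (points) with its 95% interval from limma (lines), on log2(abundance + 0.5). The interval of Sfrp2 (0.61 to 1.41) lies above 0, and those of the other 9 genes include 0.

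Sfrp2, a secreted Frizzled-related protein that binds Wnt ligands and is made by mesenchymal and stromal cells, was the member with the clearest separation. It was at 1.07, 0.755 and 0.889 in null libraries 1 to 3, and at 0.197, 0.177 and 0.213 in WT libraries 1 to 3. Every null library lay above every WT library. The ratio of means was 4.63, and 4.75% of all genes tested had a ratio above 2. On the log2(abundance + 0.5) scale, which understates the change of low genes, the difference was 1.01 ± 0.17 (SE), with a 95% interval of 0.61 to 1.41. It ranked 19 of 17736 genes by limma p, and the adjusted p was 0.525.

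Sfrp2 is annotated at chr3:83766321-83774316 on the plus strand of mm10, with 1 coding transcript of 2003 bases. Low abundances of genes with a single annotated transcript fell in steps, from which the worth of 1 sequenced fragment could be read in each library. It came to 0.0448 to 0.0477 abundance units per kilobase of effective length in null and 0.036 to 0.0458 in WT libraries. If all Sfrp2 reads came from the coding transcript, the abundances correspond to about 41, 30 and 35 fragments in null and about 10, 7 and 9 in WT libraries. The lowest null number, 30, has an exact 95% Poisson interval of 20.2 to 42.8, and the highest WT number, 10, one of 4.8 to 18.4, so the intervals did not meet. These intervals cover counting error only. The WT level of Sfrp2 thus rests on about 10 or fewer fragments per library.

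Marker lists of other tissue components differed with genotype as well, and their part in the Sfrp2 difference was not tested. Without null 1, the library with the highest muscle and fibroblast sums, the difference was 0.92 (limma unadjusted p = 0.00155, adjusted p = 0.217). With all libraries the unadjusted limma p was 0.000594, so the lower adjusted p did not come from a smaller p of Sfrp2. The difference was between 0.92 and 1.09 when any library was left out. It was also 0.92 after each library was rescaled to the median of 41 cartilage, bone and fibroblast genes. Here the limma unadjusted p was 0.00112 and the adjusted p 0.49. This scaling was added once the data had been seen. That scaling moved the median difference of genes averaging at least 5 by -0.191 on the log2 scale. Over all alternatives in which Sfrp2 could be tested its adjusted p ran from 0.217 to 0.906.

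Sfrp1, also a Wnt-binding antagonist, was at 0.787, 0.546 and 0.742 in null libraries and at 0.504, 0.468 and 0.533 in WT libraries. Its libraries stood in the same order as those of Sfrp2 and the groups did not overlap, with the lowest null value close to the highest WT value. The log2 difference was 0.25 ± 0.17 (SE; limma adjusted p = 0.802). After rescaling to cartilage, bone and fibroblast genes the Sfrp1 difference was 0.14 and the groups overlapped. Sfrp1 (chr8:23411502-23449632, plus strand) has a single annotated transcript, and its values correspond to about 69, 50 and 68 fragments in null and 58, 42 and 52 in WT libraries.

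Sfrp4, a Frizzled-related antagonist whose loss in humans causes Pyle disease of bone, was at 26, 12.6 and 15.1 in null libraries and at 14, 12.6 and 10.9 in WT libraries. The groups overlapped, and null 1 lay far above the other 5 libraries. The log2 difference was 0.44 ± 0.27 (SE; limma adjusted p = 0.802), and 0.14 without null 1, the library with the highest muscle and fibroblast sums. In that library Prg4, the lubricin gene of the joint surface and synovium, was also at its highest (547, against 166 to 295 in the other 5). Sfrp4 lies at chr13:19623104-19632994 on the plus strand. The part of these cell types in its value was not tested. Among 140 list genes with a mean of at least 1, Rspo2 and Ccn5 had the patterns most like that of Sfrp4 over the 6 libraries, with mean absolute differences of 0.15 and 0.19 between centred log2 values. Rspo2 encodes an R-spondin, an enhancer of Wnt signalling, and Ccn5 a matricellular protein.

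Frzb, a Frizzled-related antagonist first isolated from articular cartilage, was at 0.713, 1.16 and 1.39 in null libraries and at 1.53, 0.815 and 1.26 in WT libraries. The groups overlapped throughout, with the lowest value in null 1 and the highest in WT 1, and the log2 difference was -0.10 with a 95% interval of -0.70 to 0.50. The difference was 0.08 without null 1 and 0.04 without WT 1. Frzb lies at chr2:80411970-80447625 on the minus strand. The summed cartilage matrix genes were highest in null 2 (204, against 110 to 164 in the other 5 libraries), where Frzb ranked below 3 other libraries. The most similar patterns were those of Ltf and Camp, granule protein genes of neutrophils, at mean absolute differences of 0.17 and 0.18.

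Wif1, Wnt inhibitory factor, which binds Wnt ligands through its own WIF domain, was the most abundant member. It was at 26.6, 24.8 and 18 in null libraries and at 13.1, 19.3 and 17.8 in WT libraries. Null 1 and null 2 lay above every WT library, while null 3 fell within the WT range. The log2 difference was 0.45 ± 0.20 (SE; limma adjusted p = 0.802), with an interval of -0.03 to 0.94. Without null 3 it was 0.62, with an unadjusted limma p under 0.05, without WT 1 it was 0.29, and after rescaling to cartilage, bone and fibroblast genes it was 0.26. Wif1 (chr10:121033960-121100650, plus strand) corresponds to about 1166, 1127 and 818 fragments in null and 740, 851 and 871 in WT libraries. The genes with the most similar pattern among the 140 were Alpl, the alkaline phosphatase of mineralising cells, and Pth1r, the parathyroid hormone receptor of osteoblasts and chondrocytes (mean absolute differences 0.08 and 0.11).

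The Dickkopf genes showed no separation. Dkk3, a divergent family member whose action on Wnt signalling depends on context, was at 1.66, 0.871 and 0.841 in null libraries and at 1.07, 1.08 and 1.02 in WT libraries. Null 1 was above and null 2 and null 3 were below every WT library. The log2 difference was 0.02 with a 95% interval of -0.52 to 0.56, and -0.20 without null 1. It was -0.12 after rescaling to cartilage, bone and fibroblast genes. The nearest patterns to that of Dkk3 were those of Dvl1, a Dishevelled gene, and Abi3bp, a matrix protein gene, at mean absolute differences of 0.10 and 0.11. Dkk2, which binds Lrp5 and Lrp6, was at 0.282, 0.24 and 0.441 in null libraries and at 0.542, 0.294 and 0.33 in WT libraries, and the groups overlapped. Its log2 difference was -0.11 with an interval of -0.57 to 0.35, and 0.0089 without WT 1. Dkk3 lies at chr7:112116017-112159057 on the minus strand and Dkk2 at chr3:132085292-132180304 on the plus strand. About 18 to 34 fragments in null and 22 to 52 in WT libraries stood behind the Dkk2 values.

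Sost encodes sclerostin, the Lrp5 and Lrp6 antagonist made by osteocytes, and marks bone in a cartilage dissection. It was at 0.268, 0.556 and 0.258 in null libraries and at 0.378, 0.436 and 1.1 in WT libraries. The groups overlapped, and WT 3 held the highest value by a wide margin. The log2 difference was -0.37 ± 0.28 (SE; limma adjusted p = 0.802), and -0.09 without WT 3. The sum of 10 osteoblast and osteocyte genes did not peak in that library, at 1018, 713 and 653 in null and 820, 1092 and 932 in WT libraries. The most abundant gene of that sum, Bglap, was highest in WT 2 (534, against 507 in WT 3). Dmp1 and Phex of the same list were highest in WT 3, at 9.94 and 7.33. Mepe was highest in WT 2, at 1.94 against 1.84 in WT 3, and the remaining genes also peaked outside WT 3. The part of bone cells in the Sost value was not tested. Sost (chr11:101962458-101967015, minus strand) has a single annotated transcript, and its values correspond to about 10, 23 and 10 fragments in null and 19, 17 and 48 in WT libraries.

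Of the intracellular feedback genes, Axin2 can report on Wnt activity, as beta-catenin induces it in many tissues. Nkd2 is not read in that way here. Axin2, a scaffold of the beta-catenin destruction complex, was at 0.515, 0.966 and 0.701 in null libraries and at 0.659, 0.384 and 0.518 in WT libraries. The groups overlapped, with the highest value in null 2 and the lowest in WT 2. The log2 difference was 0.26 ± 0.21 (SE; limma adjusted p = 0.802), with a 95% interval of -0.24 to 0.76. It was 0.12 without null 2 and 0.16 without WT 2. Nkd2, the gene with the seed word, was at 1.28, 0.6 and 0.441 in null libraries and at 0.564, 0.893 and 0.394 in WT libraries. Only null 1 exceeded every WT library, and the log2 difference of 0.16 had an interval of -0.54 to 0.86. Without null 1 it was -0.11. Nkd2 (chr13:73818534-73847631, minus strand) and Axin2 (chr11:108920349-108950783, plus strand) each have several coding transcripts, so their fragment numbers could not be fixed.

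**Figure D3:**
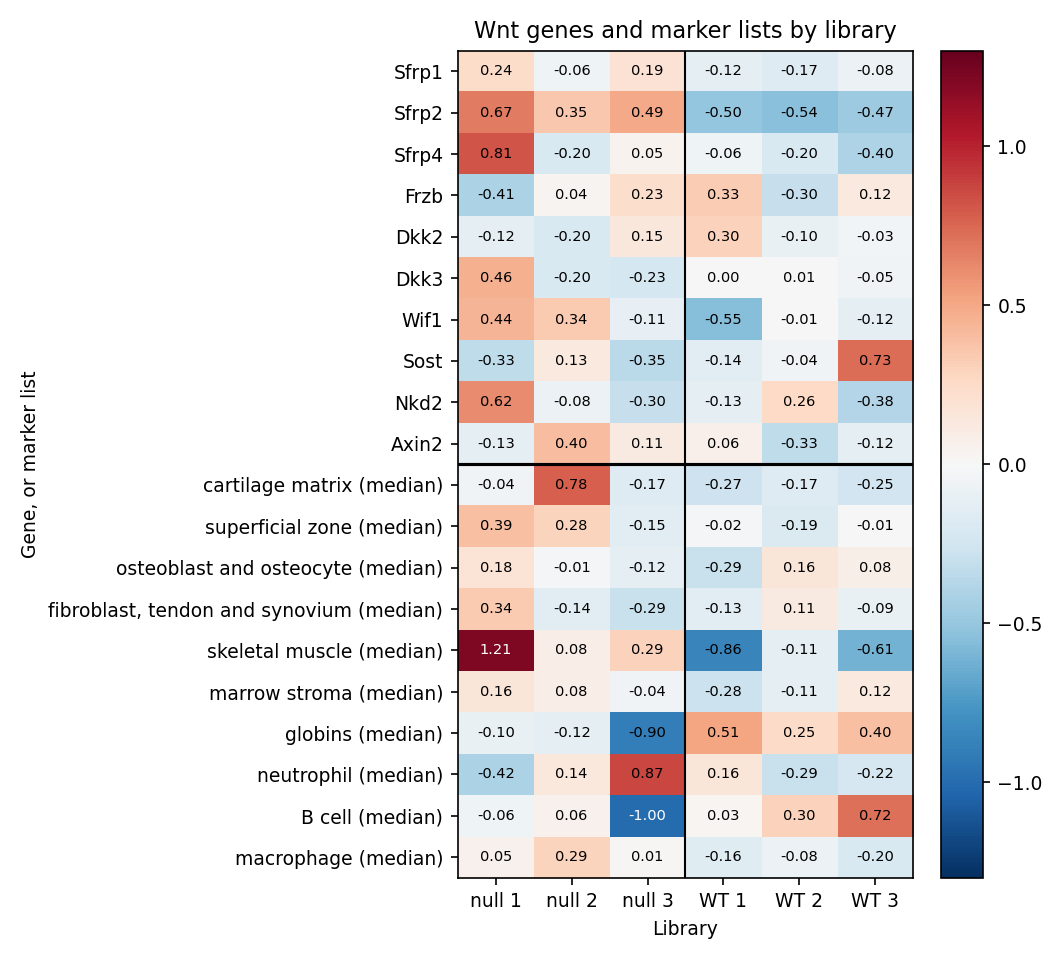
Log2(abundance + 0.5) of each of the 10 genes, minus its mean over the 6 libraries (upper rows), and the median of the same quantity over each marker list (lower rows), with miR-455 null libraries left of WT libraries. Sfrp2 is at 0.35 to 0.67 in null and at -0.54 to -0.47 in WT libraries. Sfrp1, Sfrp2, Sfrp4, Dkk3, Wif1 and Nkd2 are highest in null 1, where the muscle list is also highest at 1.21.

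Seen by library, 6 of the 10 genes had their highest value in null 1 (Sfrp1, Sfrp2, Sfrp4, Dkk3, Wif1 and Nkd2), 2 in WT 1 (Frzb and Dkk2), 1 in WT 3 (Sost) and 1 in null 2 (Axin2). The share of all genes tested that were highest in null 1 was not computed, so these counts describe the libraries only. The sums of superficial zone, muscle, and fibroblast, tendon and synovium genes were also highest in null 1. The lowest values were spread over all 6 libraries, from 1 gene in null 1 to 3 genes in WT 2. The summed abundance of the 10 genes was 59.2, 43 and 38.8 in null and 32.6, 36.4 and 34 in WT libraries, and most of this came from Sfrp4 and Wif1.

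The remaining secreted antagonists, listed in full, held 1 abundant gene. Igfbp4, an insulin-like growth factor binding protein also known to inhibit Wnt signalling, was at 105, 124 and 137 in null libraries and at 88.5, 103 and 93.6 in WT libraries. The groups did not overlap, by a narrow margin, and the log2 difference was 0.35 ± 0.13 (SE; limma adjusted p = 0.802), and was 0.15 after rescaling to cartilage, bone and fibroblast genes. Dkkl1, a Dickkopf-like protein best known from testis, was at 1.38, 2.31 and 1.23 in null libraries and at 3.53, 2.16 and 2.63 in WT libraries, with a log2 difference of -0.63 ± 0.26 (SE; limma adjusted p = 0.802). These groups overlapped. Dkk1 averaged 0.523 ± 0.136 in null and 0.502 ± 0.0698 in WT libraries (SD, n = 3 each), and Sfrp5, Notum and Draxin also stayed below 1.1 in every library and overlapped. Sostdc1 and Cer1 were below the abundance minimum, and Dkk4 was listed at 0 in every library.

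Across 6 lists of other Wnt genes, 74 of 91 genes could be tested. None passed adjusted p 0.05 by limma, and 4 had an unadjusted p under 0.05, 3 of them higher in null (2.92% of all genes tested) and 1 lower (2.44%). Besides Igfbp4 and Dkkl1 these were Bcl9, a co-activator of beta-catenin, and Kremen1, a Dickkopf receptor. Bcl9 was at 3.03, 2.2 and 3.08 in null libraries and at 1.63, 2.03 and 1.66 in WT libraries, and Kremen1 at 2.48, 2.65 and 2.9 in null and 1.88, 2.12 and 1.92 in WT libraries. Both genes were higher in every null library. Their log2 differences were 0.52 for Bcl9 and 0.36 for Kremen1, and 0.36 and 0.20 after rescaling to cartilage, bone and fibroblast genes, where neither had an unadjusted limma p under 0.05. The count of 4 depended on single libraries, as it was 9 without null 1, 1 without null 3 and 0 without WT 1 or WT 3. The share of all genes tested with such a p was not computed for these settings. The counts are therefore not read as a result about Wnt genes. Without null 1, complete separation of the groups was also more frequent over all genes tested, at 35% against 11.2% with all libraries.

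By role, the median difference on the log2 scale was 0.02 for the other secreted antagonists, 0.10 for the ligands and their secretion factors, 0.16 for receptors, 0.03 for R-spondins and their receptors, 0.05 for the cytoplasmic and nuclear core and 0.17 for other feedback and target genes, against 0.01 for all genes tested. Wls, which carries Wnt proteins to the cell surface, was the most abundant gene of the list of ligands and secretion factors. It averaged 22.9 ± 5.43 in null and 18.9 ± 0.262 in WT libraries. The receptors Lrp5 and Lrp6, on which sclerostin and Dickkopf proteins act, averaged 6.76 ± 0.885 and 7.35 ± 0.834 in null and 6.02 ± 0.381 and 6.42 ± 0.793 in WT libraries (SD, n = 3 each). Lgr4, an R-spondin receptor, averaged 1.43 ± 0.404 in null and 1.22 ± 0.291 in WT libraries. Tle5, of the Groucho co-repressor family, averaged 183 ± 36.1 in null and 159 ± 7.75 in WT libraries, and the target gene Cd44 averaged 73.4 ± 28.7 in null and 54.1 ± 3.57 in WT libraries. By the mean over the 6 libraries Wls, Lrp6, Lgr4, Tle5 and Cd44 were each the most abundant of their list. Ctnnb1, which encodes beta-catenin, averaged 136 ± 15 in null and 135 ± 13.7 in WT libraries. Nkd1, the paralogue of Nkd2, was at 0.286, 0.351 and 0.278 in null and 0.145, 0.217 and 0.115 in WT libraries. Its groups did not overlap, but its limma adjusted p was 0.802. Of the 74 other Wnt genes tested, 10 were without overlap and higher in null and 1 was lower. Over all genes tested these shares were 5.9% and 5.32%. Lrp5, Ctnnb1, Nkd1 and the ligand gene Wnt11 are named with their values already known. Wnt11 was at 0.908, 0.299 and 0.197 in null and 0.112, 0.0885 and 0.194 in WT libraries, with the highest value again in null 1.

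**Figure D4:**
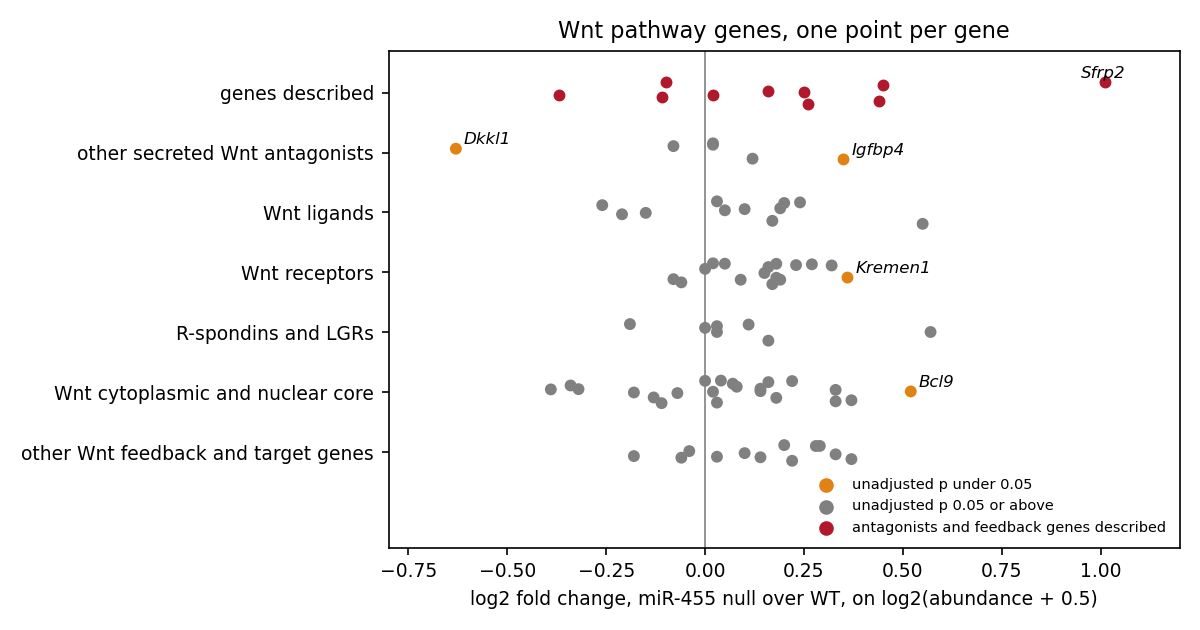
Log2 fold change of miR-455 null over WT, on log2(abundance + 0.5), with a point per gene, for the 10 genes described (red, top row) and 6 lists of other Wnt genes (orange where the unadjusted limma p is under 0.05, grey otherwise). Sfrp2, at 1.01, lies beyond every gene of the other lists.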

How the data were processed

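Gene expression had been measured by RNA sequencing of total RNA, with 1 deposited table per library. According to the submitters' processing notes, FastQC, Trim Galore, kallisto and sleuth were used with mouse build mm10. Their versions were not stated in the sources used. The deposited signal, called normalised counts by the authors, is a length-scaled abundance that is not whole and sums to between 917819 and 1135956 per library. Read totals were not analysed here. Of 36711 identifiers 35866 had a symbol in GENCODE M21, which is on mm10.

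The 10 genes and all lists were chosen with earlier results of these data known. Genotypes were compared on log2(abundance + 0.5) with limma 3.58.1 (R 4.3.3), whose prior followed the trend in abundance, over genes with a mean of at least 0.1 over the 6 libraries (17736) and Benjamini-Hochberg adjustment over all of them. The code was tested on simulated data, drawn independently with the means and spread of the real genes. At adjusted p 0.05 limma recovered 23.0% of 100 genes raised 2-fold and 54.0% of 100 raised 4-fold. Falling short of that threshold therefore does not show that a gene was unchanged. The worth of 1 fragment was estimated from genes with a single annotated transcript, as the abundance times the length less the bases (200 to 275) that made the lowest step sharpest. Between 68% and 77.7% of abundances from 1 to 5 fragments then lay within 0.15 of a whole number, where evenly spread values give 30%. This step was added after the data had been seen. Fragment numbers of genes with several transcripts are approximate. Genes named outside the 10 were the other secreted antagonists, Wnt genes with an unadjusted p under 0.05, a mean of at least 1 and no overlap, the most abundant gene of each list, and defining markers. Similar patterns were sought for genes with a group mean of at least 1, which left out Sfrp2. Every pair of libraries differed, by a median absolute log2 difference of at least 0.174. Alternatives were other pseudocounts, filters, scalings and priors, a replicate block and leaving out each library. Alignment rates were not used. Figures were drawn with matplotlib 3.10.9.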

Additional observations from a re-analysis of the deposited data

How the results depend on the processing

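The 17 alternatives, of which filters left 15 to 17 for each gene, gave 156 log2 fold changes of the 10 genes. Of these, 150 kept their direction and stayed short of adjusted p 0.05 by limma, and 6 changed sign. Filters, priors and the balanced replicate block cannot alter a log2 fold change, so in those settings the direction was fixed in advance. Dkk3 became -0.12 with the scaling to cartilage, bone and fibroblast genes, which was chosen after the data had been seen. When a library was left out, Frzb ran from -0.27 to 0.08, Dkk2 from -0.21 to 0.0089, Dkk3 from -0.2 to 0.14 and Nkd2 from -0.11 to 0.35; the cause was not tested. Of all genes, 2 passed adjusted p 0.05 when none was filtered out, 1 when a value of 5 in 3 libraries was required, 1 with the replicate block and 0 to 9 when a library was left out. None of the 10 genes passed under any alternative. The number with an unadjusted p under 0.05 was 0 with a mean of at least 1 and 0 with the minimum of 5, because these filters remove Sfrp2, and 1 to 2 when a library was left out. The number without overlap was 0 under either of those filters, 1 with the scaling to cartilage, bone and fibroblast genes, and 2 to 4 when a library was left out. Of the other Wnt genes, 1 had an unadjusted p under 0.05 with the minimum of 5 and 1 with the replicate block. The count was 2 with scaling without globin, neutrophil, B cell and muscle genes and 0 to 9 when a library was left out. The share of all genes tested with such a p was not computed for the alternatives, so these counts are not read as results about Wnt genes. The pseudocount set the size of the Sfrp2 difference, which was 1.76 with 0.1 and 0.67 with 1. The replicate number was not taken as a pairing, as libraries of the same number did not deviate together (correlations -0.096, 0.037 and -0.016). With it as a block the Sfrp2 difference was 1.01 (limma adjusted p = 0.859). Genes behind fewer than about 50 fragments per library, among them Sfrp2, Dkk2 and Sost, are limited by depth.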
